A study of Homo sapiens with 4 samples.

Results

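The circular RNA (circRNA) biogenesis regulators described here are 7 genes for RNA-binding proteins: *QKI*, *MBNL1*, *MBNL2*, *KHDRBS1*, *DHX9*, *DDX39A* and *DDX39B*. They were taken by symbol from the 40205 genes listed for each library, and all 7 were among the 13885 genes tested. Gene expression was measured by RNA-seq on the Ion Proton in lung cancer cells transfected for 24 h with a negative control (NC 1 and NC 2) or with small interfering RNA (siRNA) against circZFR, a circRNA made from exons of *ZFR* (si-circZFR 1 and si-circZFR 2). No other treatment or allele was given for either group. The sample labels name H1299 cells, whereas the design text and the article name A549, and both are human lung cancer lines. Where values are given library by library, replicate 1 comes before replicate 2 and NC before si-circZFR. Nothing in the labels says whether the 2 libraries of a group came from separate cultures, so p-values measure only the spread between these libraries, which may be technical.

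A circRNA forms by back-splicing, in which the end of a downstream exon is joined to the start of an upstream exon. Proteins that bind the introns on either side and bring them together, such as QKI, the muscleblind proteins and Sam68 (the product of *KHDRBS1*), are known to favour it, and so is base pairing between inverted repeats in those introns. DHX9 unwinds such paired repeats and is known to hold circRNA formation back. DDX39A and DDX39B, also called URH49 and UAP56, are helicases better known for nuclear export of mRNA and of finished circRNAs than for back-splicing itself. Each member acts on RNA made from many genes. The comparison asks whether the siRNA against circZFR came with a change in the mRNA of the proteins that make and export circRNAs.

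The circle that was silenced holds exons 13 to 17 of the 20 exons of *ZFR*, 693 bases, and lies at chr5:32379115-32388674 of GRCh38 on the minus strand. The first 3 sequences show the sense strand of the siRNA listed by the study, its guide strand and the back-spliced junction in DNA letters. In the sense strand, capitals mark the 9 bases from the end of exon 17, which are followed by 10 bases from the start of exon 13 and 2 overhanging bases. In the guide strand, capitals mark the seed (bases 2 to 8), and in the junction, with 30 bases on each side, they mark the siRNA target.
siRNA sense strand: CCAAGCUGGcccuuacguctt
siRNA guide strand: gACGUAAGggccagcuugg
circZFR junction: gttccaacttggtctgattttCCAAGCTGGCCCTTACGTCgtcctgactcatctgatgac
The sense strand without its overhang had 1 match in the circle and 0 in the linear *ZFR* transcript.

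Introns 12 and 17 of *ZFR* flank this circle, and their ends nearest the circle are shown because they are where proteins of this kind bind. The first window is the last 300 bases of intron 12 (chr5:32388675-32388974) and the second is the first 300 bases of intron 17 (chr5:32378815-32379114), both on the minus strand of GRCh38. Capitals mark the QKI motif, searched on the RNA strand as ACTAAC or ACTAAT.
intron 12, before exon 13: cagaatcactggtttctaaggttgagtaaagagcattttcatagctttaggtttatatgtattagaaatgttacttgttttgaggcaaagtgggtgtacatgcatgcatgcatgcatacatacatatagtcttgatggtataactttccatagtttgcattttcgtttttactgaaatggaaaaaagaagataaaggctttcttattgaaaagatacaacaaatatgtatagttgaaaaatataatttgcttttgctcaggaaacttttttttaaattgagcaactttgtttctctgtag
intron 17, after exon 17: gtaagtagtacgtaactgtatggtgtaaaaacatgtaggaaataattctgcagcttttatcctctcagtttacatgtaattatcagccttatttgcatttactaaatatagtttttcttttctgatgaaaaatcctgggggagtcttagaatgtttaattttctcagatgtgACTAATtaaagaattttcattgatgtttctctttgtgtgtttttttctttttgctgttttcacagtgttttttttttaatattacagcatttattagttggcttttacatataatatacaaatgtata
The window before exon 13 held 0 motifs and the window after exon 17 held 1, at 172 bases from the exon. The annotation gave 131638 windows of the same length on each side, from introns long enough to hold both windows without overlap. Of these, 10.8% of those before an exon and 8.88% of those after an exon held the motif. Over the whole introns there were 1 motif in the 1600 bases of intron 12 and 13 in the 14839 bases of intron 17. A match is a description of these letters and not a site bound by QKI.

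The same introns were searched for the inverted repeats on which DHX9 acts. There were 21 inverted matches between introns 12 and 17, of which the best was 311 bases long with 80.4% identity. Overlapping matches were not merged, so 21 is a number of alignments and not of separate repeats. This match lay 1178 bases from exon 13 and 2957 bases from exon 17. Among the 171 pairs of the 19 *ZFR* introns, 76 had an inverted match, and the pair that flanks the circle ranked 40th by the score of its best match. This rank makes no allowance for intron length. The number of matches and their distance from the exons were not compared with other pairs. The article describes *Alu* elements in the flanking introns as helping the circle to form.

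The deposited RPKM values (reads relative to the length of the gene and the mapped reads of the library) were turned back into reads. Totals of 11040050 to 12816868 reads per library were inferred from the values of small RNA genes of known length. Reads on the 13 mitochondrial mRNA genes made up 11.32%, 13.1%, 9.267% and 5.073% of the reads, NC 1 and NC 2 first. A trimmed-mean scaling was applied between libraries (factors 0.8864 to 1.113), and levels below are in scaled RPKM, which is relative to gene length. *CDKN2A*, which A549 cells have lost, had 0 reads in the 4 libraries, and *AKR1B10*, which is abundant in A549 cells, had 24263 to 31003. These markers alone do not settle which of the lines was sequenced. The blood markers *PTPRC* and *CD3E* and the fibroblast markers *COL1A2* and *DCN* had 0 reads in every library, and the endothelial marker *PECAM1* had 0 to 2. *ZFR* had 1437 and 1740 reads in the NC libraries and 284 and 267 in the si-circZFR libraries, and its log2 fold change (log2FC) was -2.34 (standard error 0.18, FDR = 0.0481 by limma). Reads of the circle and of linear *ZFR* are not separated in these values. The *ZFR* entry was 4715 bases long and the circle 693. By RT-PCR, the article found circZFR knocked down and no detectable effect of the siRNA on *ZFR*, whereas reads on the whole entry were lower here. Whether linear *ZFR* was also lower was not tested, so the contrast may not be of circZFR alone.

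None of the 7 regulators passed FDR < 0.05 and |log2FC| > 1 by limma on log2(scaled RPKM + 1), the thresholds of the study. Of all genes tested, 8 (0.0576%) passed, so few genes of any kind could be called by this fit. The article used edgeR, which was not run here, and reports many more genes at these thresholds. Limma-voom on the recovered reads called 278 genes (2%) and 0 of the 7. *MBNL2* had the smallest unadjusted p of the members and was lower in the si-circZFR libraries. It was the only member (1 of 7, 14.3%) with an unadjusted p under 0.05, against 2965 genes (21.4%) of all tested. Both si-circZFR libraries lay on the same side of both NC libraries for 5 of the 7 members (71.4%), 3 higher and 2 lower. Among all genes tested this held for 7759 (55.9%), with 27% of all genes tested higher and 28.9% lower. The median log2FC was -0.06 for the members and -0.01 for all genes tested, and the median |log2FC| was 0.18 and 0.27. The median size of the difference was thus below that of all genes, which were not matched to the members by level.

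The 7 genes covered a wide range of levels. In the NC libraries, the order from the highest was *DDX39A* (90.3 ± 15.5 scaled RPKM, SD, n = 2), *DHX9*, *KHDRBS1*, *DDX39B*, *MBNL1*, *MBNL2* and *QKI* (4.003 ± 0.260, SD, n = 2). By mean level over the 4 libraries among all genes tested, they ran from the 32.5th percentile for *QKI* to the 95.4th for *DDX39A*. *KHDRBS1* and *DDX39B* overlapped in the NC libraries, and every other pair of neighbours was apart. In the si-circZFR libraries *DDX39B* stood at 55.7 ± 9.52 (SD, n = 2) and overlapped *DHX9*, and *KHDRBS1* lay below both of them in each library. The plot of levels shows this order and the spread of each pair of libraries.

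**Figure D1:**
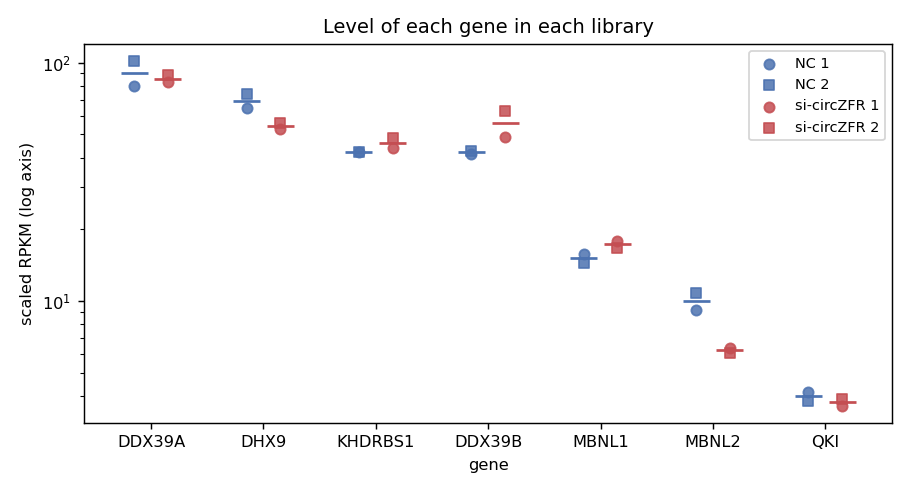
Level of each regulator in each library, in scaled RPKM on a log axis, with NC libraries in blue and si-circZFR libraries in red, replicate 1 as circles and replicate 2 as squares, and the mean of each group as a short line. The order runs from *DDX39A* to *QKI*, and the NC and si-circZFR libraries are farthest apart for *MBNL2* and *DDX39B*.

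*QKI* (chromosome 6, 163414718 to 163578592) encodes a protein of the STAR family that binds ACUAA-type motifs in introns and favours circRNA formation. It had 809 and 710 reads in the NC libraries and 693 and 786 in the si-circZFR libraries. Its scaled RPKM was 4.19 and 3.82 in the NC libraries and 3.66 and 3.91 in the si-circZFR libraries. The groups overlapped, and the mean was 4.003 ± 0.260 in NC and 3.79 ± 0.176 in si-circZFR (SD, n = 2 each). The log2FC was -0.06 (standard error 0.16, 95% interval -0.46 to 0.34, FDR = 0.843 by limma). Its sign turned without scaling between libraries, to 0.089, and the log2FC was -0.30 with a correction for gene length. In the NC libraries its level was the lowest of the 7 members.

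*MBNL1* (chromosome 3, 152268929 to 152465780) and *MBNL2* (chromosome 13, 97222333 to 97394120) encode muscleblind proteins, zinc finger regulators of alternative splicing whose fly homologue favours circle formation from its own gene. Their coding sequences were identical at 758 of 1104 aligned bases (68.7%), with no identical run longer than 20 bases. *MBNL1* had 1199 and 1049 reads in the NC libraries and 1328 and 1315 in the si-circZFR libraries. Its scaled RPKM was 15.8 and 14.4 in the NC libraries and 17.9 and 16.7 in the si-circZFR libraries. Both si-circZFR libraries were above both NC libraries, with a log2FC of 0.18 (standard error 0.16, 95% interval -0.20 to 0.57, FDR = 0.523 by limma). It was 0.36 without scaling, 0.065 with a correction for gene length and 0.12 without NC 2.

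*MBNL2* had 518 and 591 reads in the NC libraries and 354 and 357 in the si-circZFR libraries. Before scaling, its RPKM was 9.06 and 9.64 in the NC libraries and 6.57 and 6.76 in the si-circZFR libraries. After scaling, it was 9.17 and 10.9 in NC and 6.40 and 6.08 in si-circZFR. Both si-circZFR libraries lay below both NC libraries on either scale, and the si-circZFR pair agreed within counting error, which was at most 5.31% of a library's value. The mean was 10.0 ± 1.21 in NC and 6.24 ± 0.228 in si-circZFR (SD, n = 2 each). The log2FC was -0.60 (standard error 0.16, 95% interval -1.01 to -0.20, unadjusted p = 0.0109, FDR = 0.136 by limma), and it did not pass the adjustment over all genes. When each si-circZFR library was set against each NC library, the 4 differences ranged from -0.75 to -0.46, whereas NC 2 was 0.22 above NC 1. Its size stood at the 82.8th percentile of |log2FC| among all genes tested, and it ranked 1117th by p. The log2FC was -0.72 without NC 1 and -0.49 without NC 2, with an unadjusted p of 0.00666 and 0.0272 by limma. It was -0.63 without si-circZFR 1 and -0.56 without si-circZFR 2, with an unadjusted p of 0.0528 and 0.0772. In bulk RNA, fewer cells that express a gene and less of its RNA per cell cannot be told apart.

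*MBNL1* and *MBNL2* lay on opposite sides, so their ratio within a library, which scaling between libraries does not touch, was also taken, after their values were seen. The ratio of *MBNL1* to *MBNL2* RPKM was 1.73 in NC 1, 1.33 in NC 2, 2.8 in si-circZFR 1 and 2.75 in si-circZFR 2. Both si-circZFR libraries were above both NC libraries, with a difference of 0.87 between the group means of the log2 ratio. With 2 libraries in each group an exact two-sided permutation test cannot go below p = 0.333, the value it gave here and for the other ratio examined (adjusted over both, p = 0.333). *MBNL3*, the remaining muscleblind gene, had 1 read over the 4 libraries. *MBNL1-AS1*, the antisense entry beside *MBNL1*, had 3 and 2 reads in the NC libraries and 15 and 5 in the si-circZFR libraries, and the counting is not stated to use strand.

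**Figure D2:**
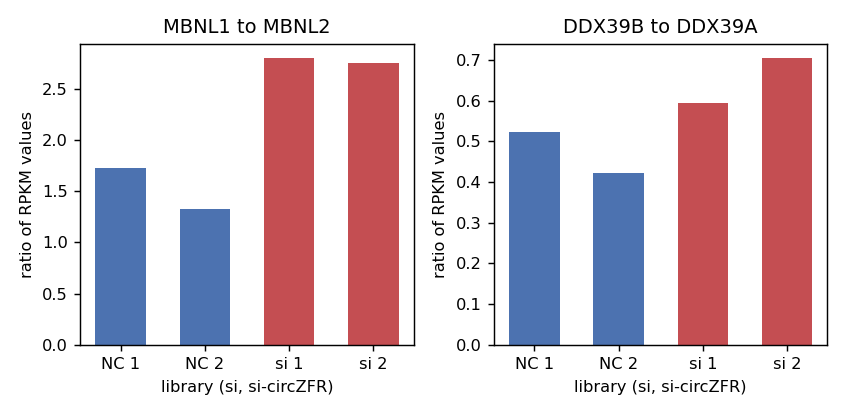
Ratio of the RPKM values of *MBNL1* to *MBNL2* (left) and of *DDX39B* to *DDX39A* (right) in each library, as bars from 0, with NC libraries in blue and si-circZFR libraries in red. Both ratios are higher in both si-circZFR libraries, from 1.33 to 1.73 in NC against 2.75 to 2.8 in si-circZFR on the left.

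*KHDRBS1* (chromosome 1, 32013868 to 32043877) encodes Sam68, another STAR protein, known to bind introns with inverted *Alu* repeats and to favour circles of *SMN* genes. Its reads were 1485 and 1429 in the NC libraries and 1507 and 1769 in the si-circZFR libraries. Its scaled RPKM was 42.3 in both NC libraries and 43.8 and 48.4 in the si-circZFR libraries. The groups were apart by less than the gap between the si-circZFR libraries themselves. The log2FC was 0.12 (standard error 0.16, 95% interval -0.28 to 0.52, FDR = 0.695 by limma). It was 0.31 without scaling, 0.20 without si-circZFR 1 and 0.054 without si-circZFR 2. Of its relatives, *KHDRBS2* had 0 reads in every library and *KHDRBS3* had 9 to 27, too few to be tested.

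*DHX9* (chromosome 1, 182839347 to 182887982) encodes the RNA helicase that opens paired inverted repeats and so holds back-splicing down. It had 3551 and 3903 reads in the NC libraries and 2853 and 3214 in the si-circZFR libraries, the most of any member in each library. Its scaled RPKM was 64.3 and 73.5 in the NC libraries and 52.8 and 56.0 in the si-circZFR libraries. Both si-circZFR libraries lay below both NC libraries, with a mean of 68.9 ± 6.49 in NC and 54.4 ± 2.27 in si-circZFR (SD, n = 2 each). The log2FC was -0.33 (standard error 0.17, 95% interval -0.77 to 0.10, unadjusted p = 0.106, FDR = 0.321 by limma), and the comparisons of single libraries ranged from -0.47 to -0.20. Without scaling between libraries the log2FC was -0.14, and with a correction for gene length it was -0.42 (unadjusted p = 0.0396 by limma).

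A pseudogene of *DHX9*, *DHX9P1*, had 141 and 134 reads in the NC libraries and 83 and 100 in the si-circZFR libraries, which was 2.91% to 3.97% of the reads on *DHX9*. It is 93.6% identical to the *DHX9* transcript over 3101 aligned bases, so reads of either gene may have been counted on the other. Its log2FC was -0.44 (unadjusted p = 0.0458, FDR = 0.225 by limma), on the same side as that of *DHX9*.

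*DDX39A* (chromosome 19, 14408798 to 14419341) and *DDX39B* (chromosome 6, 31530226 to 31542003) encode closely related DEAD-box helicases of the mRNA export machinery, and each is known to export circRNAs of a different length class. Their coding sequences were identical at 1027 of 1284 aligned bases (80%), and the longest identical run was 26 bases. *DDX39A* had 1531 and 1879 reads in the NC libraries and 1561 and 1780 in the si-circZFR libraries. Its scaled RPKM was 79.4 and 101.3 in NC and 82.6 and 88.7 in si-circZFR. Both si-circZFR libraries fell between the NC libraries, and the log2FC was -0.07 (standard error 0.20, 95% interval -0.57 to 0.43, FDR = 0.872 by limma). This sign turned without scaling (0.12), with the length correction (0.046) and without NC 2 (0.11).

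*DDX39B* had 1061 and 1049 reads in the NC libraries and 1224 and 1657 in the si-circZFR libraries. Its scaled RPKM was 41.6 and 42.7 in the NC libraries and 49.0 and 62.4 in the si-circZFR libraries. Both si-circZFR libraries were above both NC libraries, and they were farther from each other than si-circZFR 1 was from the NC libraries. The log2FC was 0.38 (standard error 0.19, 95% interval -0.08 to 0.85, unadjusted p = 0.0905, FDR = 0.30 by limma), and the comparisons of single libraries ranged from 0.19 to 0.57. Without si-circZFR 2 it was 0.22. The ratio of *DDX39B* to *DDX39A* RPKM within a library was 0.524 in NC 1, 0.422 in NC 2, 0.593 in si-circZFR 1 and 0.704 in si-circZFR 2. It was higher in both si-circZFR libraries, with a difference of 0.46 in the mean log2 ratio and the exact permutation p given above.

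The values of *DDX39B* carry 1 further limit, since the readthrough entry *ATP6V1G2-DDX39B* spans the same gene. This entry had 1042 and 1037 reads in the NC libraries and 1214 and 1649 in the si-circZFR libraries, or 98.2% to 99.5% of the reads on *DDX39B*, and fell short of *DDX39B* by only 8 to 19 reads. Its log2FC was 0.39 (FDR = 0.288 by limma), and the entries cannot be taken as separate measurements. The pseudogenes *DDX39AP1* and *DDX39BP1* had 0 reads in all libraries and *DDX39BP2* had 0 to 6.

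**Figure D3:**
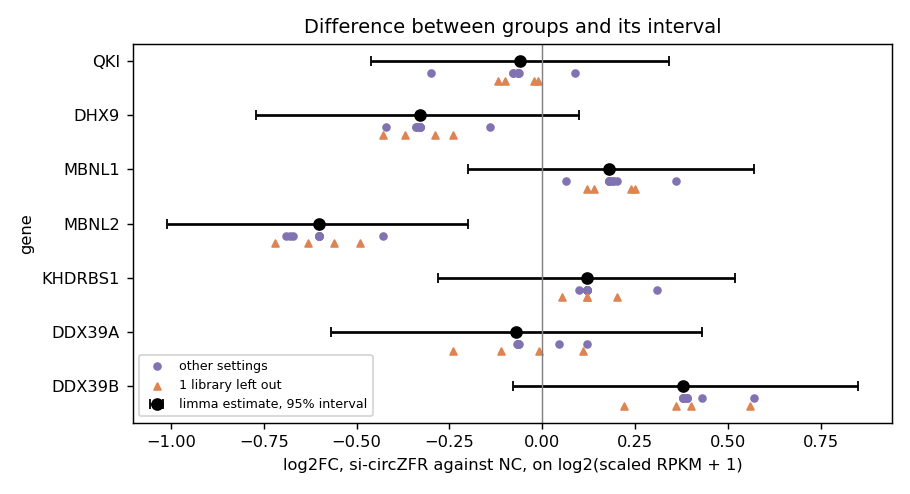
Difference between si-circZFR and NC for each regulator (log2FC on log2(scaled RPKM + 1), x axis), with the limma estimate and its 95% interval in black, the estimates under other settings as purple points and those with 1 library left out as orange triangles. The interval excludes 0 for *MBNL2* alone (-1.01 to -0.20, before adjustment over all genes), and points on both sides of 0 appear for *QKI* and *DDX39A*.

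Values that moved with the groups across many genes also touch these 7. Across all genes tested, log2FC increased with gene length, taken as the shortest length that gave whole reads (Spearman's rho 0.29). However, the NC libraries also differed along length (rho -0.336, NC 2 relative to NC 1), and the si-circZFR libraries hardly did (rho 0.0205). After a smooth correction for length, 3 of the 7 members (*DHX9*, *MBNL2* and *DDX39B*) had an unadjusted p under 0.05, with log2FC values of -0.42, -0.69 and 0.43, against 2972 of all genes (21.4%) in the same fit, and none of the members had an FDR under 0.05. The share of mitochondrial reads, lower in the si-circZFR libraries, was not used in any correction, and its part in these differences was not tested.

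Other genes of the same pathways, from lists chosen with earlier results of these data known, were read beside the members. Of 18 other back-splicing regulators, 15 were tested, 0 were called, and 2 were higher and 0 lower at an unadjusted p under 0.05, where the background was 9.51% of genes higher and 11.8% lower. Their median log2FC was 0.08. *HNRNPM*, a splicing factor of the hnRNP family, had a log2FC of 0.66 (standard error 0.21, unadjusted p = 0.0213, FDR = 0.169 by limma). *SFPQ*, a paraspeckle protein that acts on long introns, had a log2FC of 0.43 (standard error 0.17, unadjusted p = 0.0461, FDR = 0.226 by limma). Neither passed, and *ADARB1*, *NOVA2* and *ESRP1* were too low to be tested.

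All 18 genes of mRNA and circRNA export were tested, 0 were called, and 1 was higher and 1 lower at an unadjusted p under 0.05, with a median log2FC of -0.04. They were both in the THO complex, which works with *DDX39B* on nascent mRNA. *THOC3* had a log2FC of -0.74 (standard error 0.18, unadjusted p = 0.00741, FDR = 0.121 by limma), and *THOC7* had a log2FC of 0.55 (standard error 0.16, unadjusted p = 0.015, FDR = 0.151 by limma). All 11 genes of circRNA decay and sensing were tested, 0 were called, and 2 were higher and 0 lower at an unadjusted p under 0.05, with a median of 0.03. For both lists the background is the same, 9.51% of all genes tested higher and 11.8% lower. *G3BP2*, a stress granule protein, had 387 and 532 reads in the NC libraries and 1013 and 1153 in the si-circZFR libraries. Its log2FC of 1.12 (standard error 0.20, FDR = 0.0829 by limma) was the largest of any gene in the lists and did not pass.

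**Figure D4:**
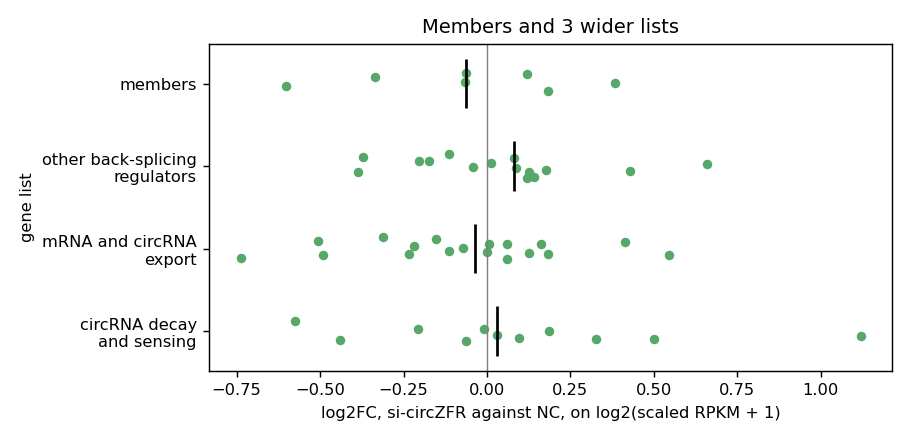
log2FC of si-circZFR against NC (x axis, on log2(scaled RPKM + 1)) for each tested gene of the 7 members and of the 3 wider lists, 1 point a gene with random vertical spread, and the median of each list as a black line. The medians lie between -0.06 and 0.08, and *G3BP2* at 1.12 is the farthest point.

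For 6 of the members, the gene of these lists with the most similar values was found by Euclidean distance of the mean-centred log2 levels over the 4 libraries, among 44 genes. *QKI* was nearest to *THOC5* (distance 0.0903) and *KHDRBS1* to *THOC1* (0.134). *DHX9* (0.106) and *MBNL2* (0.221) were both nearest to *EIF4A3*, a helicase of the exon junction complex. *DDX39A* was nearest to *POLDIP3* (0.0997) and *DDX39B* to *SFPQ* (0.0987). Of these 6 distances, that of *MBNL2* was the largest. With 4 libraries these distances are a description.

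The 3′UTRs of the members were searched for the target site of the siRNA's seed and for another 7-base site. The target site of the listed siRNA's seed, CTTACGT, was in none of the 7, and 2.72% of 10351 tested genes with a 3′UTR held it. The other site, CTGACTC, was picked from earlier results of these data. It lies in the junction shown above but outside the siRNA target, and it is not the target site of that seed. CTGACTC was also in none of the 7, against 11.3% of the same genes. The 3′UTRs searched ran from 138 bases in *DDX39A* to 7882 in *QKI*. At these shares, finding neither site in any of 7 genes is unremarkable. Only exact matches in the MANE transcript of each gene were searched, and whether the siRNA acted on any member through its seed was not tested.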

How the data were processed

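RNA-seq was analysed for 2 NC and 2 si-circZFR libraries, grouped by the sample titles. The authors prepared Ion Total RNA-Seq libraries, aligned reads to hg38 per the article (GRCh37 per the labels' processing notes) and deposited 1 RPKM value per gene and library. The aligner and counter are not given in the sources used here, and the article states that SVA removed batch effects. With a tolerance of 0.02, 24282 of 24289 genes above 0 (99.97%) gave whole reads at some gene length. That length was chosen for each gene to make its reads whole, so this share was partly fixed in advance. Of small RNA genes of known length, 96.7% to 97.75% gave whole reads. Totals were 11959335 (NC 1), 12816868 (NC 2), 11266089 (si-circZFR 1) and 11040050 (si-circZFR 2). Counting errors cover counting only.

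RPKM values were scaled by unweighted trimmed means (30% of ratios and 5% of levels trimmed), and a gene was kept when 2 or more libraries reached an RPKM of 1. Limma, its prior variance following the mean level (prior degrees of freedom 3.81 at the median), was run on log2(scaled RPKM + 1), which understates changes of low genes, with Benjamini-Hochberg adjustment over all 13885 genes (FDR). Alternatives covered scaling, filter, pseudocount, replicate block, gene length, trend, threshold, limma-voom on recovered reads and leaving out each library. Members and lists were chosen with earlier results of these data known. The rule names the members, *ZFR* and *HNRNPLL*, the 2 genes of each list with the smallest p, the nearest genes, near-identical entries and cell line markers. A few genes that the rule names are left out of the text. *HNRNPLL*, the partner of circZFR in the article, had a log2FC of -0.24 (FDR = 0.455). Positions and sequences came from GENCODE 44 (GRCh38) and its MANE transcripts, found for all 7 members. The siRNA came from the study's list. Inverted repeats were found by blastn 2.17.0 (E-value up to 1e-05). Python 3.11.15 (Biopython 1.88, scipy 1.17.1, pandas 2.3.3, matplotlib 3.10.9, numpy 2.4.6) and R 4.3.3 (limma 3.58.1) were used.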

Additional observations from a re-analysis of the deposited data

How the results depend on the processing

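None of the 7 members passed FDR < 0.05 and |log2FC| > 1 under any alternative. Over 13 alternatives that gave 90 log2FC values (*QKI* was not tested at RPKM of at least 5), 86 kept their sign and the smallest FDR was 0.053, for *MBNL2* without NC 1, whose log2FC ranged from -0.72 to -0.43. The reversed values were 0.089 for *QKI* and 0.12 for *DDX39A* without scaling, which moved the median of all genes to 0.15, and for *DDX39A* 0.046 with the length correction and 0.11 without NC 2 (range -0.24 to 0.11 with 1 library left out). Members with an unadjusted p under 0.05 numbered 2 without scaling (22.3% of all genes in that fit), 3 with the length correction (21.4%) and 0 to 2 with 1 library left out, against 1 as reported (21.4%). These were 2 without NC 1 (35.3%), 1 without NC 2 (18.8%), and 0 without si-circZFR 1 (12.8%) and without si-circZFR 2 (8.92%). The number with groups apart was 5 in every fit of all 4 libraries, and 5 to 7 with 1 library left out, where 71.5% to 86% of all genes were apart because a group of 1 library overlaps less easily.

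The number of genes called among all tested, 8 as reported, was 0 without a filter (3639 at an unadjusted p under 0.05), 167 at RPKM of at least 5, 2 with a pseudocount of 0.1, 15 with the length correction, 0 without the trend (2969 at an unadjusted p under 0.05), 278 by limma-voom and 331 at FDR < 0.1. With 1 library left out it was 0 to 1019: 1019 without NC 1, 0 without NC 2 (2566 at an unadjusted p under 0.05), 83 without si-circZFR 1 and 15 without si-circZFR 2, where the lone library of a group is assumed to vary like the others. The cause was not tested.

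With the replicate number as a block the count was 17, and no member's call changed. The labels share only numbers between groups, and deviations of same-numbered libraries from their group means had a correlation of 0.0696, so the numbers were not taken to pair the libraries.

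The medians of the 3 wider lists ranged over the alternatives from -0.044 to 0.20 for the other back-splicing regulators, from -0.082 to 0.13 for export and from 0.0066 to 0.22 for decay and sensing. Their numbers with an unadjusted p under 0.05 were 2 in each list as reported. In the other fits of all 4 libraries they ranged from 1 to 4, from 2 to 3 and from 1 to 3. In those fits 15% to 23.5% of all genes had an unadjusted p under 0.05. With 1 library left out, the counts spread wider for the other back-splicing regulators and for export, but not for decay and sensing. Those counts are not given, because a group of 1 library has no spread of its own. With 2 libraries in each group, differences of the size seen for *DHX9* and *DDX39B* could not be separated from 0 at this precision.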
